A study of Mus musculus with 6 samples.

Results

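The untreated baseline of the study is the DMSO control culture of ventricular cardiomyocytes from newborn wild-type mice, and its transcriptome is described here gene by gene. It was chosen by its treatment label alone: 2 of the 6 samples of the series carry the DMSO label, and the count table holds 1 column for them, of which the labels do not say whether it is a single replicate or a pool. The cells came from hearts of pups at postnatal day 1 or 2, were digested with trypsin, and were depleted of fibroblasts with CD90 antibodies and magnetic sorting. They were plated at 70000 per well on fibronectin in 12-well plates with serum in the medium, and were exposed to the solvent for 48 h after 12 h in culture. The sources used here name neither the strain, the number of litters, any pooling of pups nor the DMSO concentration. The other 4 samples, treated with CyA or Gant61, are not analysed here.

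Cardiomyocytes contract through sarcomeres, arrays of myosin thick filaments and actin thin filaments anchored at the Z-disc and held in register by titin. Around birth the mouse ventricle replaces fetal versions of several sarcomere proteins with adult ones, turns from glucose to fatty acids as its main fuel, and its myocytes leave the cell cycle. Gene pairs whose members belong to different stages, chambers or muscle types therefore show where a culture stands, and genes of the cell cycle and markers of other heart cells show what else its RNA holds.

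The library held 36661845 counts, and 14897 genes had at least 10 counts. CPM is a gene's count scaled to the library total. TPM divides the count by the summed length of the gene's annotated exons before scaling, so that genes can be compared with each other. With 1 column there is no replicate error: the 95% intervals below are exact Poisson intervals, or exact conditional binomial intervals for ratios, and cover counting error only. The library was concentrated in few genes, with 12.4% of counts in the top 10 genes, 28.8% in the top 100, and 50 percent of counts in 539 genes. Mitochondrially encoded genes took 5.21% of counts and cytosolic ribosomal protein genes 2.63%. The Wilson 95% intervals of these shares were at most 0.0158 percentage points to either side, and cover counting error only. Some mitochondrially encoded genes and most ribosomal protein genes share sequence with other genes, so both shares are less certain than their intervals. How far shared sequence moved these shares was not tested. Protein-coding genes took 98.4% of counts, annotated pseudogenes 0.884% and long noncoding RNAs 0.461%. In bulk RNA, fewer cells of a type and less RNA per cell cannot be told apart, which holds for every marker level below.

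The 5 defining cardiomyocyte markers were all high. Myh6 (chr14:54941921-54966927, GRCm38), the fast alpha myosin heavy chain of the adult mouse heart, had the highest count of any gene, 879786, or 23997 CPM (interval 23947 to 24048). Actc1 (chr2:114047282-114053548), cardiac alpha actin, stood at 19682 CPM and Tnnt2 (chr1:135836354-135852260), cardiac troponin T, at 8030 CPM. Ttn (chr2:76703980-76982547), the giant spring protein titin, was at 2322 CPM, and Myh7 (chr14:54970684-54994626), the slow beta myosin heavy chain, at 1459 CPM. These values put all 5 among the 54 genes with most counts, and the label of the culture was met by its markers. Per length their order differed: Actc1 was at 37596 TPM, Myh6 at 11027, Tnnt2 at 3202, Myh7 at 523 and Ttn at 61.4. The annotated exons of Ttn span 116825 bases. The level of Tnnt2 depends on the length used, since its exons sum to 7752 bases over all annotated transcripts but to 1200 in its principal transcript, on which it was at 14481 TPM.

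**Figure D1:**
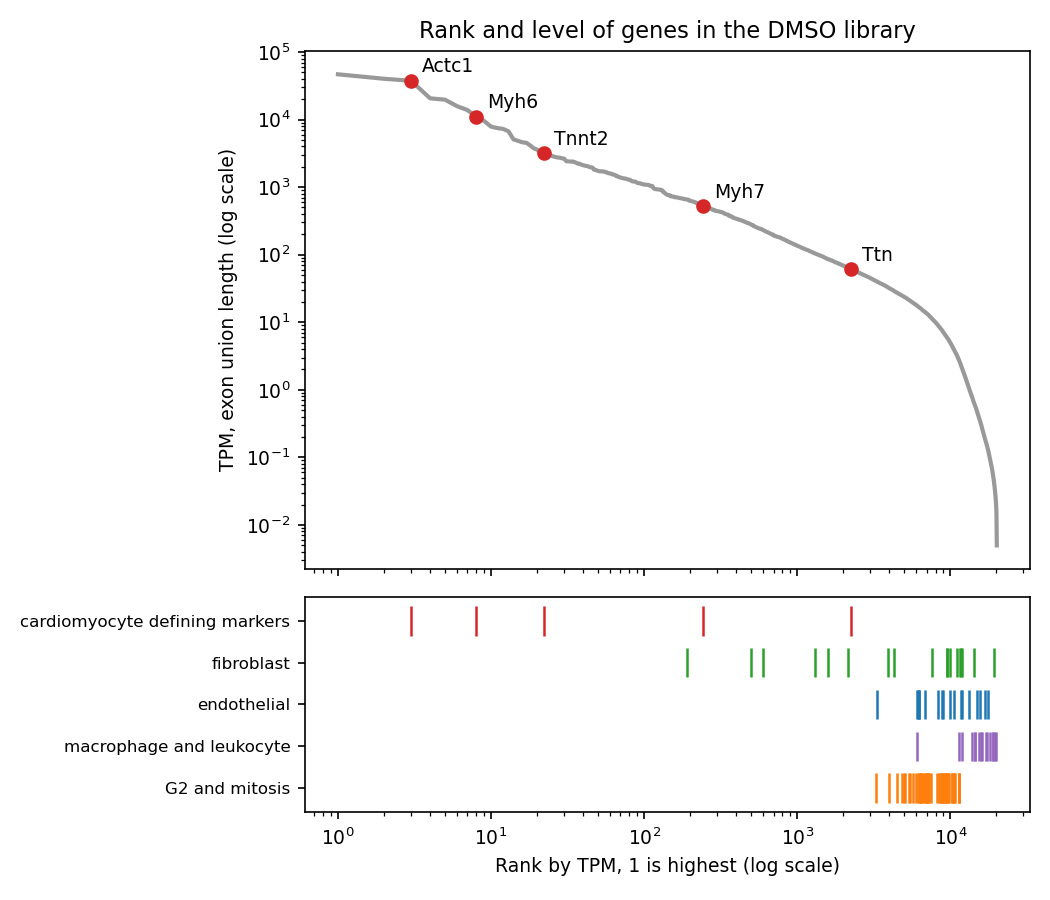
Upper panel: level of each gene with a count in the DMSO library in TPM (log scale) against its rank (log scale), with the 5 defining cardiomyocyte markers as red points. Lower panel: ranks of the genes of 5 lists, 1 tick per gene; the defining markers reach from rank 3 to rank 2250, and the G2 and mitosis genes lie together in the middle of the curve.

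Among nuclear genes with a plain symbol, the gene with the highest level per length was not a sarcomere gene but Nppa (chr4:148000722-148002079), the atrial natriuretic peptide gene, at 46841 TPM (interval 46709 to 46974). Nppa is expressed in atria and ventricles of the fetal heart and retreats to the atria after birth. Exons of a gene on the opposite strand cover 61.5% of its exon bases, and the strand setting of the counting is not given, so its level carries that uncertainty. Of the 20 highest nuclear genes per length, 10 were in the sarcomere lists: Actc1, Myh6, Tnnc1 (cardiac troponin C, 9566 TPM), Ankrd1 (a stretch-responsive titin-binding protein, 7857 TPM), Myl2 (ventricular regulatory light chain, 7271 TPM), Tpm1 (tropomyosin, 4534 TPM), Myl3 (ventricular essential light chain, 3582 TPM), Mybpc3 (cardiac myosin-binding protein C, 3306 TPM), Tnnt2 and Des (desmin, 2813 TPM). The other 10 were Nppa, Nppb (brain natriuretic peptide, 4151 TPM), the translation genes Eef1a1 (6706 TPM, with 59.2% of windows shared) and Rplp1 (5100 TPM, with 60% of windows shared), Myl9 (a nonsarcomeric and smooth muscle light chain, 4616 TPM), Hspb7 (a muscle small heat shock protein, 3761 TPM), Atp5b (the ATP synthase beta subunit, 3087 TPM), Atp2a2 (the calcium pump SERCA2, 3074 TPM), Casq2 (cardiac calsequestrin, 2890 TPM) and S100a11, a calcium-binding protein gene (2758 TPM, with 41.1% of windows shared). With principal transcript lengths 15 of these 20 stayed in the top 20. By counts alone the basement membrane collagen genes Col4a1 and Col4a2 also stood high, at 2767 and 2332 CPM.

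The 45 genes of the thick filament, thin filament and Z-disc lists held 11.3% of all counts and 110070 TPM in sum. Of these 45 genes, 37 were at 100 TPM or more, and their median was 523 TPM, at percentile 98.8 of all genes with a count, whose median was 4.84 TPM. The thin filament list had no low member: all 12 genes were at 100 TPM or more, down to Nebl (nebulette, 134 TPM). The thick filament list reached from Myh6 down to Myom3, an M-band protein gene of skeletal muscle, with 22 counts and 0.307 TPM. Among the Z-disc genes, Actn2 (alpha-actinin) was at 2642 TPM, Cryab (a small heat shock protein that binds desmin) at 2034 TPM and Csrp3 (muscle LIM protein) at 1102 TPM. Myoz1 and Myot, Z-disc genes of skeletal muscle, had 21 and 3 counts. Myom3, Myoz1 and Myot were the 3 members of the 45 below 1 TPM.

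The sarcomere genes also differ from other genes in the sequence just upstream of their starts. The CArG box is bound by serum response factor and the MEF2 site by the MEF2 factors, both long known at muscle promoters. In the 250 bases before the start of transcription (RefSeq starts, GRCm38.p6), matched for 33 of the 45 genes, 6 genes or 18.2% held a CArG box and 5 genes or 15.2% a MEF2 site, searched on both strands. Among 18074 genes of all kinds with a matched promoter the shares were 1.36% and 2.25%. Among the 10008 matched genes with at least 10 counts they were 1.19% and 1.61%. No sarcomere gene held both motifs, so no match overlapped one of the other kind. The GC box, the letters GGGCGG on either strand, went the other way, in 30.3% of the sarcomere promoters, 43.3% of all matched promoters and 61.4% of those of genes with at least 10 counts. Among the 100 nuclear genes with the highest TPM, it was in 47.1% of matched promoters. These are letter matches, not measured binding. The 40 bases around each CArG box are shown because they carry this difference, 5′ to 3′ on the strand of the gene with the match in capitals:
Actc1, chr2:114052898-114052937, minus strand: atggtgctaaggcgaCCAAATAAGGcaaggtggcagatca
Acta1, chr8:123894824-123894863, minus strand: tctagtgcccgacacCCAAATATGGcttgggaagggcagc
Myl3, chr9:110763578-110763617, plus strand: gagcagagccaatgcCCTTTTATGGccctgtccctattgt
Myl7, chr11:5898819-5898858, minus strand: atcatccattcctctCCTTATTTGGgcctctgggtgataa
Ldb3, chr14:34588692-34588731, minus strand: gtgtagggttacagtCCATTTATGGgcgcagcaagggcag
Myom1, chr17:71019443-71019482, plus strand: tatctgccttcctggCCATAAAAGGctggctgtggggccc

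The MEF2 matches lay in other genes, with the same layout:
Mybpc3, chr2:91118039-91118078, plus strand: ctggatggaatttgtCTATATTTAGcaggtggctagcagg
Myoz2, chr3:123034996-123035035, minus strand: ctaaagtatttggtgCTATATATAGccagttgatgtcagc
Synpo2l, chr14:20668439-20668478, minus strand: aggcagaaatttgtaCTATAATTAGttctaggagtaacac
Xirp2, chr2:67445913-67445952, plus strand: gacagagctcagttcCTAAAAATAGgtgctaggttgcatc
Myom3, chr4:135759665-135759704, plus strand: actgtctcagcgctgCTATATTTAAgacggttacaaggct

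The MEF2 matches of Myoz2 and Myom3 lay 33 to 24 and 35 to 26 bases before the start. Whether they are TATA boxes, AT-rich elements near the start, was not tested. Holding a match did not go with a single level. Actc1 and Acta1, with a CArG box each, were at 37596 and 290 TPM, and Mybpc3 and Myom3, with a MEF2 site each, at 3306 and 0.307 TPM. Myh6, Myh7, Tnni3 and Tnni1 had no match of either kind in this window, and Myl2 had no matched promoter. The genes of the binding factors were themselves measured: Srf was at 139 TPM, its cardiac coactivator gene Myocd at 128 TPM, Mef2d at 114 TPM, Mef2a at 69.7 TPM and Mef2c at 24.1 TPM.

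Isoform pairs were read as the ratio of counts per kilobase of exon, with the member of the adult heart first. Of 40 pairs, the adult or heart member was the higher in 31, and every ratio had a counting interval that excluded 1. Myh6, Tnnt2, Tnni3, Mybpc3 and Cacna1c each lead more than 1 pair, so the pairs are not independent. Pairs against skeletal muscle or the atrium bear on tissue and chamber, not on stage, and the developmental pairs include Myh6 over the skeletal gene Myh3. The direction was uniform among pairs that set heart against skeletal muscle (13 of 13 pairs) or ventricle against atrium (5 of 5 pairs). It was 5 of 6 among developmental pairs, and it was mixed among metabolic pairs, where the muscle member was the higher in 8 of 16, and in 2 of the 8 whose members shared less than 20% of windows.

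**Figure D2:**
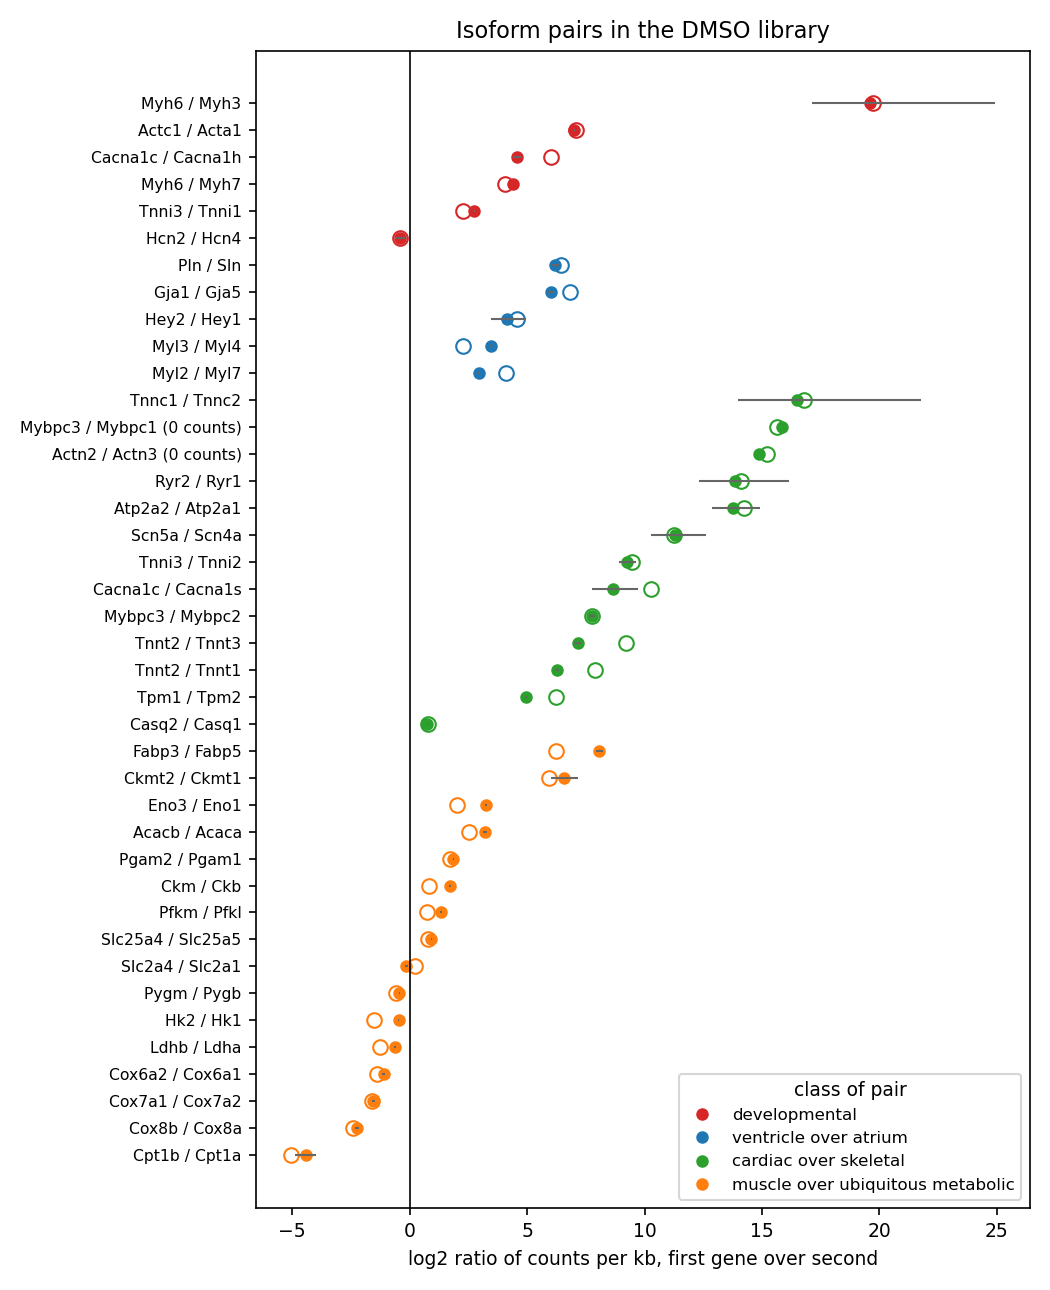
log2 ratio of counts per kilobase for the 40 isoform pairs, the member of the adult heart or muscle over the other; filled points use the exon union length, open points the principal transcript, and bars are counting intervals. Pairs marked (0 counts) are drawn against a floor of 3 counts, without a bar, and are not measured ratios. Points left of the line at 0 have the other member higher.

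Myosin heavy chain RNA was mostly Myh6. Myh6 exceeded Myh7 by 21.1 times per kilobase (interval 20.9 to 21.3), so that Myh7 made up 4.53% of the pair. The genes lie in tandem on chromosome 14 and share sequence: 22.6% of the 50-base windows of Myh6 and 22.2% of those of Myh7 occur in another annotated gene. Of the exon bases of Myh7, 13.3% lie opposite exons of another gene, and Mhrt, an antisense transcript of this locus, had 1350 counts. Myh3, the embryonic myosin heavy chain of skeletal muscle, had 1 count.

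Tnni3, the adult cardiac troponin I (chr7:4518305-4524229), was at 2070 TPM and Tnni1, the slow skeletal form that the fetal heart uses (chr1:135779434-135810989), at 305 TPM, a ratio of 6.78 (interval 6.65 to 6.91). The fetal form was therefore 12.9% of the pair, a larger share than that of Myh7 in its own. Neither gene shared windows with another. With principal transcripts the ratio was 4.90. Cardiac actin Actc1 exceeded skeletal actin Acta1, which the fetal and the stressed heart express, by 130 times (interval 126 to 133).

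Channel genes showed 1 pair with the immature member ahead. Hcn4, the pacemaker channel of the embryonic heart and the sinus node, had 629 counts and Hcn2, the ventricular paralog, 249, a ratio of Hcn2 to Hcn4 of 0.758 (interval 0.652 to 0.879). The L-type calcium channel gene Cacna1c exceeded the T-type gene Cacna1h by 23.9 times (interval 21.1 to 27.3), and by 64.9 times with principal transcripts. The other T-type gene, Cacna1g, was at 56.9 TPM beside 51.7 TPM for Cacna1c, but with principal transcripts they were at 49.7 and 116 TPM. The comparison with Cacna1g was not one of the 40 pairs, and was chosen after its value was seen.

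Chamber pairs all had the ventricular member higher. Myl2 exceeded the atrial light chain gene Myl7 by 7.75 times (interval 7.56 to 7.95), and by 17.0 times with principal transcripts. Myl3 exceeded Myl4, the atrial and fetal light chain gene, by 11.0 times, and by 4.88 times with principal transcripts. Phospholamban (Pln) exceeded its atrial relative sarcolipin (Sln) by 73.7 times, though 64.7% of the exon bases of Pln lie opposite exons of another gene. Connexin 43 (Gja1) exceeded connexin 40 (Gja5), found in atria and conduction tissue, by 65.2 times, and by 114 times with principal transcripts. Hey2, a ventricular repressor gene, exceeded Hey1 by 17.9 times on 428 and 17 counts. The light chain ratios are the smaller ones, and Myl7 was still at 938 TPM.

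Most skeletal muscle paralogs had few counts, and Casq1 stood apart. Mybpc1 and Actn3 had 0 counts, and against a floor of 3 counts Mybpc3 and Actn2 were at least 59178-fold and at least 30307-fold higher by exon union length, and at least 51269-fold and at least 37989-fold with principal transcripts. Tnnc2 had 1 count, Ryr1, the skeletal calcium release channel, 3 counts, Scn4a 7 counts, Atp2a1 9 counts and Cacna1s 10 counts. Troponin T of slow and fast skeletal muscle was present at low levels: Tnnt1 was at 41.1 TPM and Tnnt3 at 22.5 TPM, 77.9 and 142 times below Tnnt2, and 235 and 585 times below it with principal transcripts. Mybpc2, of fast skeletal muscle, was at 15.3 TPM, and Tpm2, a tropomyosin of slow skeletal and smooth muscle, was at 147 TPM, 30.8 times below Tpm1 (75.8 with principal transcripts). Casq1 (chr1:172209894-172219868) encodes the calsequestrin of fast skeletal muscle, which stores calcium in the sarcoplasmic reticulum. It had 39720 counts and 1716 TPM, so that Casq2 exceeded it by 1.68 times (interval 1.66 to 1.70). Casq1 shared no window with another gene, and a small part of its exon bases lies opposite exons of another gene.

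Metabolic pairs went both ways, also within glucose use. The muscle form was ahead in Eno3 over Eno1 (9.58 times, 4.02 with principal transcripts), with 72.2% of the windows of Eno1 shared, and in Pgam2 over Pgam1 (3.64 times), with 41.5% of those of Pgam1 shared. It was also ahead in Ckm over Ckb (3.29 times, 1.78 with principal transcripts; 21.9% of the windows of Ckb shared) and in Pfkm over Pfkl (2.55 times, 1.66 with principal transcripts). The sarcomeric mitochondrial creatine kinase gene Ckmt2 exceeded Ckmt1 by 93.9 times, and by 60.9 times with principal transcripts. The adenine nucleotide carrier gene Slc25a4 exceeded Slc25a5 by 1.89 times, with 46.6% of the windows of Slc25a5 shared. For lipid, Fabp3 exceeded Fabp5 by 270 times (74.7 with principal transcripts; 29.2% and 21.1% of windows shared). The acetyl-CoA carboxylase gene Acacb exceeded Acaca by 9.33 times (5.70 with principal transcripts; 52.6% of the windows of Acaca shared). The brain form of glycogen phosphorylase, Pygb, exceeded the muscle form Pygm by 1.36 times. In the respiratory chain the ubiquitous form was ahead in all 3 pairs of cytochrome c oxidase subunits. Cox8a exceeded the muscle form Cox8b by 4.71 times, Cox7a2 exceeded Cox7a1 by 2.90 times and Cox6a1 exceeded Cox6a2 by 2.15 times. These subunits switch to the muscle form as the heart matures. Ldha, the lactate dehydrogenase subunit common in anaerobic tissue, exceeded the heart subunit Ldhb by 1.53 times (2.38 with principal transcripts). Hk1, the hexokinase of the fetal heart, exceeded Hk2 by 1.38 times (2.83 with principal transcripts). The insulin-regulated glucose transporter gene Slc2a4 and the fetal form Slc2a1 were nearly level at 112 and 122 TPM, and their order turned with the principal transcripts (Slc2a4 over Slc2a1, 1.17). Cpt1b, the muscle carnitine palmitoyltransferase, had 45 counts against 2188 for the liver form Cpt1a. For Cpt1b, 93.0% of windows occur in another annotated gene and 81.4% of exon bases lie in exons of another gene on the same strand, so its level is uncertain.

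Both fuel pathways were well represented as lists. The 22 glycolysis genes had a median of 259 TPM (percentile 97.4) and the 27 fatty acid oxidation genes one of 78.4 TPM (percentile 91.3). Aldoa (aldolase, 2392 TPM) and Fabp3 (the fatty acid-binding protein of heart, 2291 TPM) led them. Of the regulators, Esrra was at 78.4 TPM, Ppargc1a at 29.7 TPM and Ppara, the receptor that switches on fatty acid genes after birth, at 6.33 TPM.

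Markers of other cells were read next, because the cells had been depleted of fibroblasts but not sorted for myocytes. The 112 measured genes of 8 non-myocyte lists had a median of 1.00 TPM, at percentile 33.7 of all genes with a count, and 21 of them had 0 counts. Genes at 0 counts are in the lists but not in that reference, which lowers the percentile. The lists differed. The median was at percentile 68.8 for smooth muscle and pericyte, 58.2 for fibroblast and 53.2 for endothelial genes. It was at 39.9 for epicardium and mesothelium, 29.9 for Schwann and neural and 19.6 for macrophage and leukocyte genes. The lymphocyte and erythroid medians were 0 TPM. The sum of the 5 defining cardiomyocyte markers was 34.3 times that of the fibroblast list, 324 times that of the endothelial list, 2020 times that of the macrophage and leukocyte list and 16.1 times that of the smooth muscle and pericyte list. It was 9.64 times the sum over all 8 lists. These ratios include 11 genes that neonatal myocytes are also known to express, a subset chosen after seeing the data. Without them the sum over all 8 lists was 1194 TPM in place of 5436 TPM. For the smooth muscle and pericyte list it was 140 in place of 3252 TPM, and for the fibroblast list 637 in place of 1526 TPM.

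**Figure D3:**
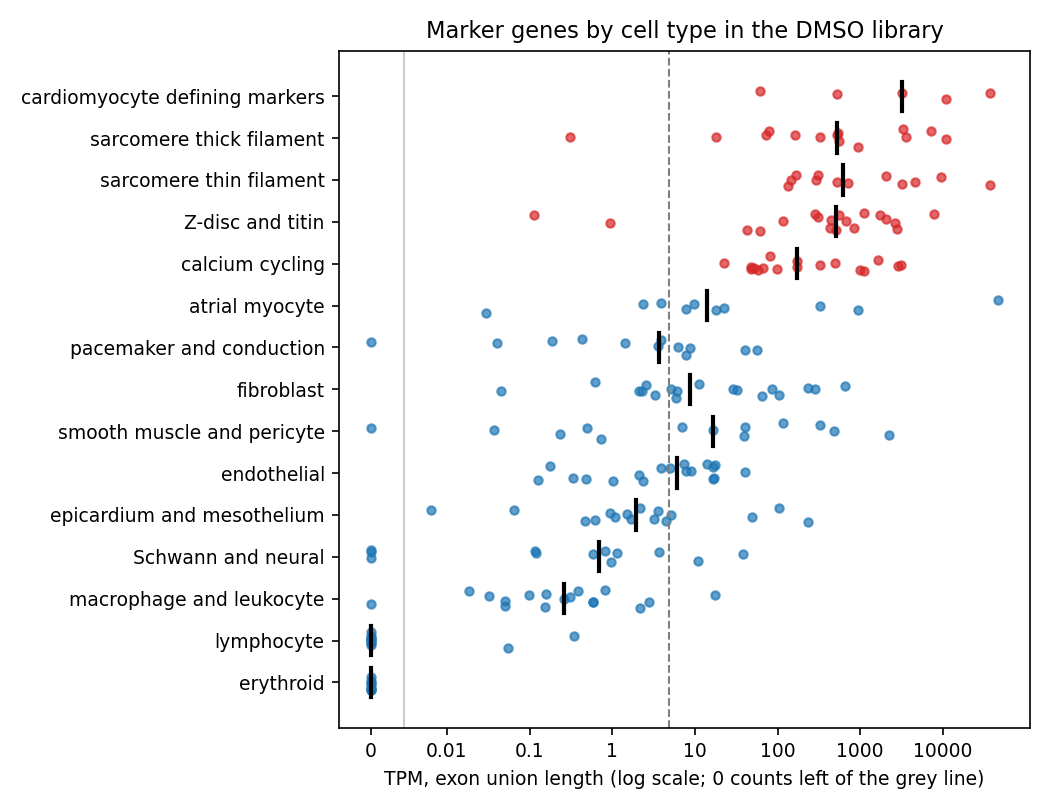
Level of each marker gene in the DMSO library in TPM (log scale), 1 point per gene, with genes at 0 counts left of the grey line. Black bars are list medians and the dashed line is the median gene with a count (4.84 TPM); all 8 measured erythroid markers and 8 of 10 lymphocyte markers are at 0.

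Fibroblast markers were uneven. The intermediate filament gene Vim (vimentin) was at 659 TPM, Col1a1 at 281 TPM, Fn1 (fibronectin) at 230 TPM and Col1a2 at 104 TPM. Some other fibroblast genes, picked with their values in view, were lower. Tcf21, a transcription factor of cardiac fibroblasts, was at 5.99 TPM and Pdgfra, their growth factor receptor, at 5.08 TPM. Dcn (decorin) was at 3.31 TPM and Lum (lumican) at 2.14 TPM. Of all 18 fibroblast genes, 9 were at 10 TPM or more. Thy1 (chr9:44043384-44048579), which encodes CD90, the antigen of the depletion, was at 85.9 TPM (interval 82.8 to 89.0), at percentile 92.1. On the same scale Thy1 was above Tcf21, Pdgfra, Dcn and Lum, and below Vim, Fn1 and both type I collagen genes. The median of the fibroblast list was 8.67 TPM (percentile 58.2), and 5.96 TPM without Vim and Fn1, which myocytes can also express.

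Endothelial RNA was present at a low level. All 18 endothelial markers had a count and their median was 6.13 TPM (percentile 53.2). Eng (endoglin) was at 40.3 TPM, Cdh5 (the junction protein VE-cadherin) at 16.5 TPM, Pecam1 at 8.88 TPM and Kdr, the main VEGF receptor, at 1.03 TPM. Vwf and Cldn5 had 24 and 3 counts.

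In the smooth muscle and pericyte list the 3 highest genes were ones that immature myocytes also express. Acta2 (smooth muscle actin) was at 2215 TPM, Tagln (transgelin) at 486 TPM, with 67.9% of exon bases opposite another gene's exons, and Cnn1 (calponin) at 330 TPM, while Myh11, the myosin heavy chain that defines smooth muscle, was at 0.233 TPM. The pericyte genes Rgs5, Kcnj8 and Higd1b had 2, 15 and 0 counts, but Cspg4 (NG2) was at 116 TPM and Pdgfrb at 16.5 TPM. Without the 7 members that neonatal myocytes are known to express, a subset chosen after seeing the data, the median of the list was 3.81 TPM in place of 16.5 TPM.

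Blood markers were at or near 0, and nerve markers were low apart from a few genes. All 8 measured erythroid genes had 0 counts, for which the floor of 3 counts is 0.0818 CPM. The 4 globin genes share most of their windows with each other, but Alas2 (the first enzyme of erythroid heme synthesis), Slc4a1 and Epb42 do not, and were at 0 as well. Of 10 lymphocyte genes 8 had 0 counts. The macrophage and leukocyte list had a median of 0.262 TPM, with Lyz2 (lysozyme) at 17.6 TPM, Csf1r at 0.584 TPM and Ptprc, the pan-leukocyte antigen CD45, at 4 counts. In the neural list, with a median of 0.695 TPM, Tubb3, a tubulin of neurons, was at 37.9 TPM, while Sox10, a transcription factor gene of Schwann cells, had 21 counts. Dbh, the enzyme that makes noradrenaline, was at 10.8 TPM with 345 counts, whereas Th, which catalyses an earlier step of the same pathway, had 0 counts.

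Most epicardial markers were low, and 3 of 16 were at 10 TPM or more. The surface genes Upk3b and Msln (mesothelin) were at 1.07 and 3.60 TPM, and Wt1, a transcription factor of the epicardium, at 0.953 TPM. The 3 were the keratin genes Krt18 at 236 TPM and Krt19 at 104 TPM and the transcription factor gene Tbx18 at 49.1 TPM, whereas Krt8, the usual partner of Krt18, was at 5.12 TPM with 26.9% of its windows shared. Among 12 pacemaker and conduction genes the median was 3.72 TPM (percentile 46.8): Isl1 had 0 counts, Shox2, a sinus node factor, 17 counts, and Tbx3 was at 3.59 TPM. In the atrial list Kcna5, an atrial potassium channel gene, had 1 count in spite of the high level of Nppa.

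Cell cycle RNA was present throughout. All 96 genes of the replication and mitosis lists had at least 10 counts, from 62 counts to 3758 counts. Together they took 0.164% of the library (interval 0.163 to 0.165). Over the whole library, 14897 of 55487 genes had at least 10 counts, and 12821 of 21974 protein-coding genes. The 50 genes of G2 and mitosis had a median of 12.7 TPM, at percentile 64.1 of all genes with a count, and 42 of the 50 were above the median gene. Among genes with at least 10 counts, that median was at percentile 51.5. Mki67, the antigen of cycling cells, was at 14.4 TPM (interval 13.7 to 15.1), Top2a (topoisomerase II) at 16.1 TPM, Cdk1, the mitotic kinase, at 17.3 TPM. Ccnb1 (cyclin B1) had 1049 counts, with 42.1% of its windows shared. The list was narrow, from Cdc25c at 2.67 TPM to Smc4, a condensin subunit gene, at 41.1 TPM. The fibroblast and endothelial lists had medians of 8.67 and 6.13 TPM, and their part in the cell cycle RNA was not tested.

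Replication genes were a little lower. The 46 genes had a median of 6.21 TPM (percentile 53.3), with Pcna, the sliding clamp, at 50.3 TPM (31.8% of windows shared), Rrm2, which makes deoxynucleotides, at 37.7 TPM, and Exo1, a repair nuclease gene, the lowest at 1.19 TPM. The 6 minichromosome maintenance genes of the replicative helicase reached from 11.4 TPM for Mcm2 to 24.7 TPM for Mcm6. The 10 cytokinesis genes had a median of 9.27 TPM, with Anln (anillin, the scaffold of the cleavage furrow) at 16.5 TPM and Ect2, which starts furrowing, at 8.59 TPM. Of 66 replication-dependent histone genes 29 had 0 counts and the median was 0.136 TPM. Of the 66, 53 shared at least 20% of windows with another gene, so their levels are uncertain. The kit was TruSeq stranded mRNA, and how far it captures these histone RNAs was not tested. Their levels are therefore not read as a measure of replication. The linker histone gene H1f2 was at 134 TPM.

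**Figure D4:**
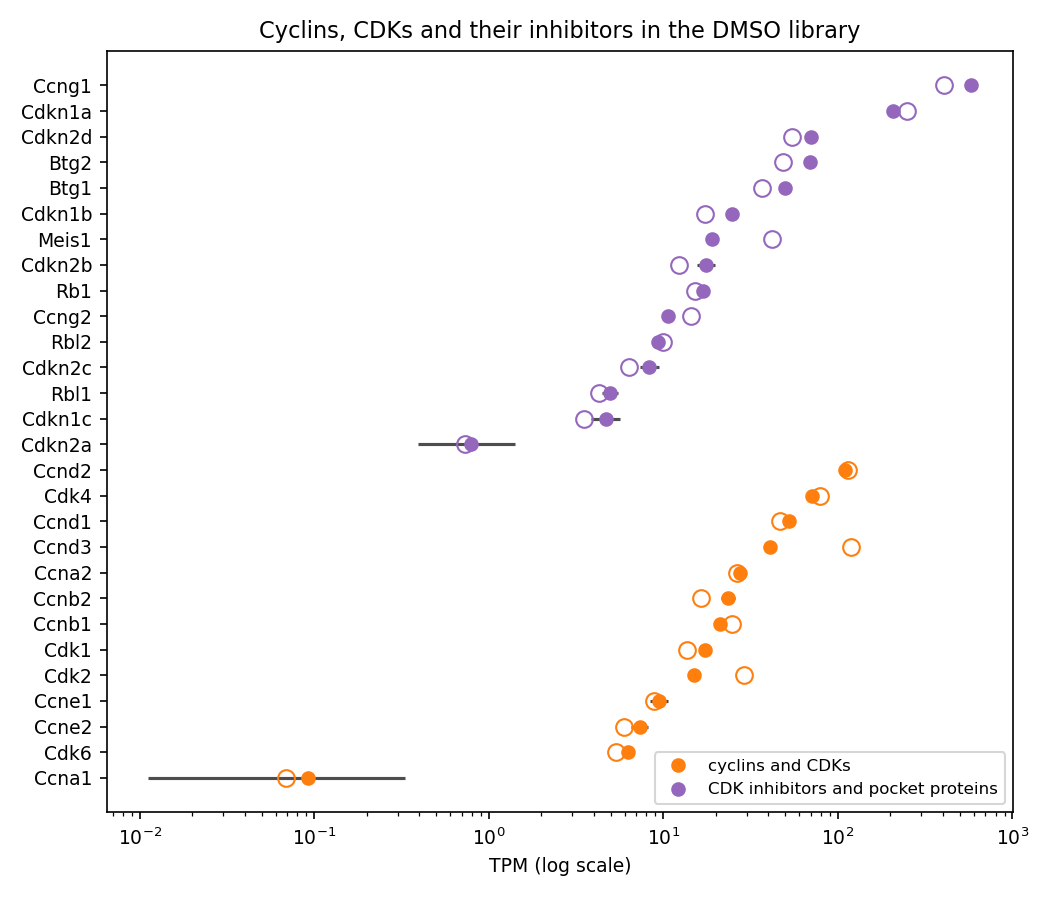
Level in TPM (log scale) of 13 cyclin and CDK genes and of 15 CDK inhibitor, pocket protein and cell cycle exit genes in the DMSO library. Filled points use the exon union length with Poisson intervals, open points the principal transcript; Ccng1 and Cdkn1a lead the second list on both lengths, and Ccnd2 leads the first by exon union length and Ccnd3 by principal transcript.

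The D-type cyclins, which act at the start of the cycle, were more abundant than the cyclins of S phase and mitosis. Ccnd2 (cyclin D2, 110 TPM), Cdk4, its kinase partner (71.4 TPM), Ccnd1 (52.7 TPM) and Ccnd3 (40.7 TPM) were the 4 highest of the 13 cyclin and CDK genes. Ccnd2 exceeded Ccna2 by 4.02 times (interval 3.80 to 4.26) and Ccnb1 by 5.25 times (4.93 to 5.60). Ccna1, the cyclin A of the germ line, had 2 counts.

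Of the 15 inhibitor and exit genes, whose median was 17.6 TPM, Ccng1 and Cdkn1a were above every cyclin and CDK gene. Cdkn1a (chr17:29090976-29100727), the p21 inhibitor and a p53 target, was at 207 TPM (interval 202 to 211), 1.88 times Ccnd2 and 12.0 times Cdk1. It exceeded Cdkn1b (p27), an inhibitor tied to myocyte cell cycle exit, by 8.32 times (interval 7.85 to 8.82), and by 14.2 times with principal transcripts. Ccng1, a further p53 target, was at 579 TPM, the highest of the 15 genes of this list. Cdkn1c (p57), an imprinted inhibitor of the fetal heart, was at 4.67 TPM, and Cdkn2a, a senescence marker, had 11 counts. Meis1, a transcription factor that holds postnatal myocytes out of the cycle, was at 19.1 TPM.

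Genes that respond to serum, adhesion and stretch were high in the culture. The 21 genes of this list had a median of 374 TPM (percentile 98.2). Besides Ankrd1 and Acta2, Ccn2 (connective tissue growth factor) was at 1712 TPM, Thbs1 (thrombospondin 1) at 679 TPM and Ccn1 at 427 TPM. Immediate early genes, which peak within an hour of stimulation, were lower, with Egr1 at 67.7 TPM, Fos at 17.3 TPM and Fosb with 37 counts. The 13 genes tied to dedifferentiation and injury of myocytes had a median of 290 TPM (percentile 97.6), and 8 were at 100 TPM or more, Nppa, Ankrd1, Nppb and Acta2 among them. In the same list Runx1 and Kit had 85 and 31 counts, Dab2 was at 6.06 TPM and Dstn, an actin-severing protein, at 614 TPM.

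The genes of calcium cycling and of cardiac gene control were read as myocyte genes beyond the sarcomere. Their lists were chosen with earlier results of these data known, so they are not an independent check of identity. Over the whole library, 7985 of 55487 genes were at 10 TPM or more. All 17 calcium cycling genes were at 10 TPM or more (median 169 TPM, percentile 96.0). Pln was at 1659 TPM, Slc8a1, the sodium-calcium exchanger, at 327 TPM and Ryr2, the release channel, at 171 TPM. Of 20 cardiac transcription factors, 15 were at 10 TPM or more. Tbx20 (425 TPM) and Gata4 (317 TPM) were the highest, Nkx2-5 was at 112 TPM and Tbx5 at 20.4 TPM, and Hand1, a factor of the early left ventricle, was at 3.88 TPM.

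Transcripts of both sexes were present. Xist, which is transcribed from the inactive X chromosome, had 2877 counts, and the Y-linked genes Eif2s3y, Ddx3y, Uty and Kdm5d had from 732 to 2564 counts.

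Some genes share most of their sequence with other genes, and their levels are uncertain. In the mitochondrial genome mt-Co1, with 51.1% of its windows shared, had 737250 counts, while mt-Co2, mt-Co3 and mt-Atp6, with 99.5% to 100% shared, had 855, 780 and 283. Over the 13 mitochondrial protein genes, the 5 with at least 90 percent of windows shared had 59 to 855 counts, and the other 8 had from 270 to 737250. Gapdh, a glycolysis gene often used as a reference, had 1500 counts and 30.6 TPM with 82.5% of windows shared, and Eno1, Pgk1 and Pkm share windows too (72.2%, 68.0% and 34.4%). Of 84 genes that the symbol rule for ribosomal proteins takes in, 69 shared at least 20% of windows. The shares of all counts given above for mitochondrially encoded and ribosomal protein genes carry the same uncertainty, which their intervals do not cover.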

How the data were processed

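The authors deposited raw read counts per gene, whole numbers with no normalization per the file headers. Trimmomatic 0.33, FastQC, HISAT2 2.1.0, featureCounts and GRCm38 are named in the submitters' processing notes, with no role or order given. The kit was TruSeq stranded mRNA, per the labels' protocols. The annotation, strand setting and treatment of multiply mapped reads are not stated in the sources used here. Of the columns of values, 1 was used, and 4 (the inhibitor libraries and the means) were not. The authors' lists of higher and lower genes were not used here.

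TPM was computed from the deposited counts with exon union lengths of GENCODE release 21 of the mouse (GRCm38), which held 55227 of 55487 genes. The other 260 genes held 432 counts. Principal transcripts are those of APPRIS, as tagged in GENCODE. Sharing is the percentage of 50-base windows of the principal transcript found in another gene's transcripts. Promoters came from RefSeq (GRCm38.p6), taking the start nearest the principal GENCODE start within 500 bases. A percentile is that of a list's median among all genes with a count. Depth was 36661845 counts, and 1 count is 0.0273 CPM. No test was made, since a single column has no residual spread. Intervals (95%) and the floor of 3 counts cover counting error only. The scripts were tested on simulated data. Python 3.11.15, NumPy 2.4.6, pandas 2.3.3 and SciPy 1.17.1 were used.

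The 29 lists and 40 pairs were chosen with earlier results of these data known. Genes were named by rule: the top 20 nuclear genes per length, the pairs, and up to 6 members of each list by level. Other members, and genes outside the lists such as Mhrt and the collagen genes, were picked with their values in view. Alternatives were other gene lengths, no length, no mitochondrial genes, other count minimums, and pairs with little shared sequence.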

Additional observations from a re-analysis of the deposited data

How the results depend on the processing

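The 14897 genes detected became 20120 at 1 count, 12631 at 1 CPM and 13335 at 1 TPM. Without mitochondrially encoded genes, the top 100 genes held 25.7% of counts. Myh6 exceeded Myh7 by 16.8 times with the longest or the principal transcript, and by 16.4 times in counts. The number of pairs with the adult or heart member higher was 31 with the longest transcript and without length, 32 with principal transcripts, and 23 of the 30 pairs whose members share under 20% of windows. The 1 pair that turned was Slc2a4 over Slc2a1, at 1.17 with principal transcripts. Besides Myh6 over Myh7, 27 pairs kept their direction but left their counting interval with principal transcripts. With the longest transcript 26 did so, and without length 29. The counting intervals therefore do not cover the choice of length. The percentile of the non-myocyte markers was 38.4 by CPM and 12.9 among genes with at least 10 counts, and that of the mitosis genes was 61.3 with the longest and with the principal transcript, 62.0 by CPM and 51.5 among genes with at least 10 counts. The shift with the stricter background follows from its construction, since genes under 10 counts leave it. Principal transcripts and the list without shared members were added after seeing the data. No paired analysis was possible because the table holds 1 column for the DMSO group, so no replicate could be left out either. How far any level varies between cultures cannot be told from 1 column.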
